A study of Mus musculus with 4 samples.

Results

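This account describes 35 interferon-stimulated genes in CD4 single-positive thymocytes, T cell precursors that have finished CD4 lineage choice in the thymus. A list of 37 symbols was given, and the members are those to which the platform annotation assigns at least 1 probe set of their own. These 35 genes had 49 probe sets, out of 18193 genes and 34945 probe sets with a single symbol on the array. Isg15 and Ifi44 were not analysed here: no probe set carried the symbol Ifi44, and Isg15 shared its own with Gm9706. Cells came from B6 mice of 2 genotypes. The group called LM was CD4Cre-Cul3fl/fl, and the group called KO was CD4 Cre+Cul3fl/fl, so both groups carried floxed Cul3 and only KO mice carried the Cre transgene. Each group had 2 arrays, and cells had been sorted to exclude CD25, CD1d-PBS57 tetramer and gamma delta T cell receptor staining. The labels used here state neither the age of the mice nor whether replicates were separate animals, so p-values measure a spread between samples that may be technical.

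CD4 Cre transgenes are driven by Cd4 regulatory elements and act from the double-positive thymocyte stage onward, before the cells studied here. Without an array from Cre-carrying mice that lack floxed Cul3, Cre and loss of Cul3 cannot be told apart. The 5 Cul3 probe sets differed by -0.15 to 0.31 on the log2 scale between KO and LM, with limma adjusted p-values of 0.677 or above, and the labels do not say which exon is floxed. Genotypes therefore rest on the labels, and KO below means the arrays labelled KO. The T cell genes Cd3e and Cd4 read high on every array, at 7852 to 8424 and 7088 to 7983. Background levels set from olfactory and vomeronasal receptors were 77.7 to 106. Of 9 tested markers of CD4 single-positive T cells, 8 were above background on all 4 arrays. In bulk samples such as these, fewer expressing cells and less RNA per cell cannot be told apart.

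Interferons are secreted cytokines that signal through paired receptor chains to JAK kinases. Type I interferon receptors activate a complex that contains Stat2 and Irf9 and binds the interferon-stimulated response element (ISRE), while interferon gamma acts mainly through gamma-activated sites (GAS). The induced genes encode RNA-binding blockers of translation, nucleic acid sensors, membrane and nucleotide-pool antiviral factors, and regulators that amplify or end the response. In the thymus, a tonic type I interferon response accompanies the last maturation steps of single-positive thymocytes before they leave.

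Matches to the core of the ISRE are visible in the promoters of several members. RefSeq windows from 250 bases before to 50 after each gene start (GRCm38.p6) were searched on both strands for the ISRE core GAAANNGAAA. Of the 27 listed genes with a window, 13 held at least 1 core and 7 held 2 or more. Some genes have several windows: 13 of the 33 windows of listed genes held a core (39.4%), against 3.44% of all 32851 windows. The GAS core TTCNNNGAA was found in 7 of the 33 windows (21.2%) and in 8.30% of all windows. A match describes letters in this window and shows no binding, and the other 10 listed genes had no window in the table. The 5 genes shown are those with a core and the smallest p-values among the members described by sample. For 3 of them the core lay upstream, and the bases from -160 to -1 are given. Capitals mark each match to the core or to its reverse complement.

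Ifit1 (chr19:34640729-34640888, plus strand): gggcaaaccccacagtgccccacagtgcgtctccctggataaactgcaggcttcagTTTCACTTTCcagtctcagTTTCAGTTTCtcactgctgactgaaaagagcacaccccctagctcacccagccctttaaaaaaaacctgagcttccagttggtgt

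Ifit3 (chr19:34583369-34583528, plus strand): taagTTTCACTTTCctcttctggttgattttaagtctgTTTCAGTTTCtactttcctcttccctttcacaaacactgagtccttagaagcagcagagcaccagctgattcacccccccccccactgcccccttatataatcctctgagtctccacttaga

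Rsad2 (chr12:26456453-26456612, minus strand): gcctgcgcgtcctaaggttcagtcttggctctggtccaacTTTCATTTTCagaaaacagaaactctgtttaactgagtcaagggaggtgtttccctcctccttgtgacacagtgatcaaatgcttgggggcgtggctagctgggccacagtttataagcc

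In Ifit1 the pair of cores began at -104 and -85 and in Ifit3 at -156 and -122, and both genes hold the same 2 versions of the core in the same order. Rsad2 had 1 core, at -120. For Ifitm3 and Ifih1 the cores lay just after the start, and only the sites are shown.

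Ifitm3 (chr7:141010715-141010743, minus strand): gGAAAAGGAAActtctgaGAAACCGAAAc

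Ifih1 (chr2:62646213-62646224, minus strand): cGAAACAGAAAc

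The cores of Ifitm3 began at bases 3 and 20 after the start and that of Ifih1 at base 33. These 5 promoters sit beside genes that read in opposite directions: Ifit1, Ifit3, Rsad2 and Ifih1 had lower mean signals on the KO arrays and Ifitm3 a higher one, as given below. Among the 12 measured members with a core in the window, 5 differed downward and 7 upward, with a median of 0.03. Among the 13 with a window but no core, 7 differed downward and 6 upward, with a median of -0.00444.

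The comparison asked how the interferon-stimulated genes differ between KO and LM thymocytes. The 3 IFIT genes and the RNA sensors Ifih1 and Dhx58 read lower on both KO arrays than on either LM array, while Isg20, Ifitm3 and Bst2 read higher on both. In all, 37.1% of members read lower on both and 20% higher, against 18.3% and 19.1% of all genes tested. The share of higher members is thus near that of all genes. None of the 35 genes passed the test, in which KO minus LM differences of log2(signal + 16) were fitted with limma and p-values were adjusted over the 11255 tested genes by the Benjamini-Hochberg method. The background for such calls was 0.275% of genes tested (31 of 11255), and the smallest adjusted p of a member was 0.149, for Ifit1. Per probe set, none of the 48 tested passed either, against 0.229% of the 21795 probe sets tested. At an unadjusted p below 0.05, 5 members differed in limma (Ifit1, Ifit3, Ifi27l2a, Isg20 and Dhx58), 14.3% of the 35 against 8.40% of all genes tested.

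Differences ran both ways, with a median size of 0.234 on the log2 scale, against 0.169 over all genes tested. Of the 35 members, 19 had a mean difference below 0 (54.3%, against 49.7% of all genes tested) and 16 above 0. Both KO arrays lay below both LM arrays for 13 members (37.1%, against 18.3% of all genes) and above them for 7 (20%, against 19.1%). For 2 of the 13 the gap between the groups was small on the log2 scale, 0.00709 for Samd9l and 0.00839 for Zbp1. Members were chosen with earlier results known, so these shares are descriptions. The median difference was -0.05, against 0.00181 over all genes tested, and single differences ran from -0.66 for Ifit3 to 0.46 for Ifitm3. All 35 brightest probe sets were above background on all 4 arrays, so no member was kept by the filter for 1 group alone.

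**Figure D1:**
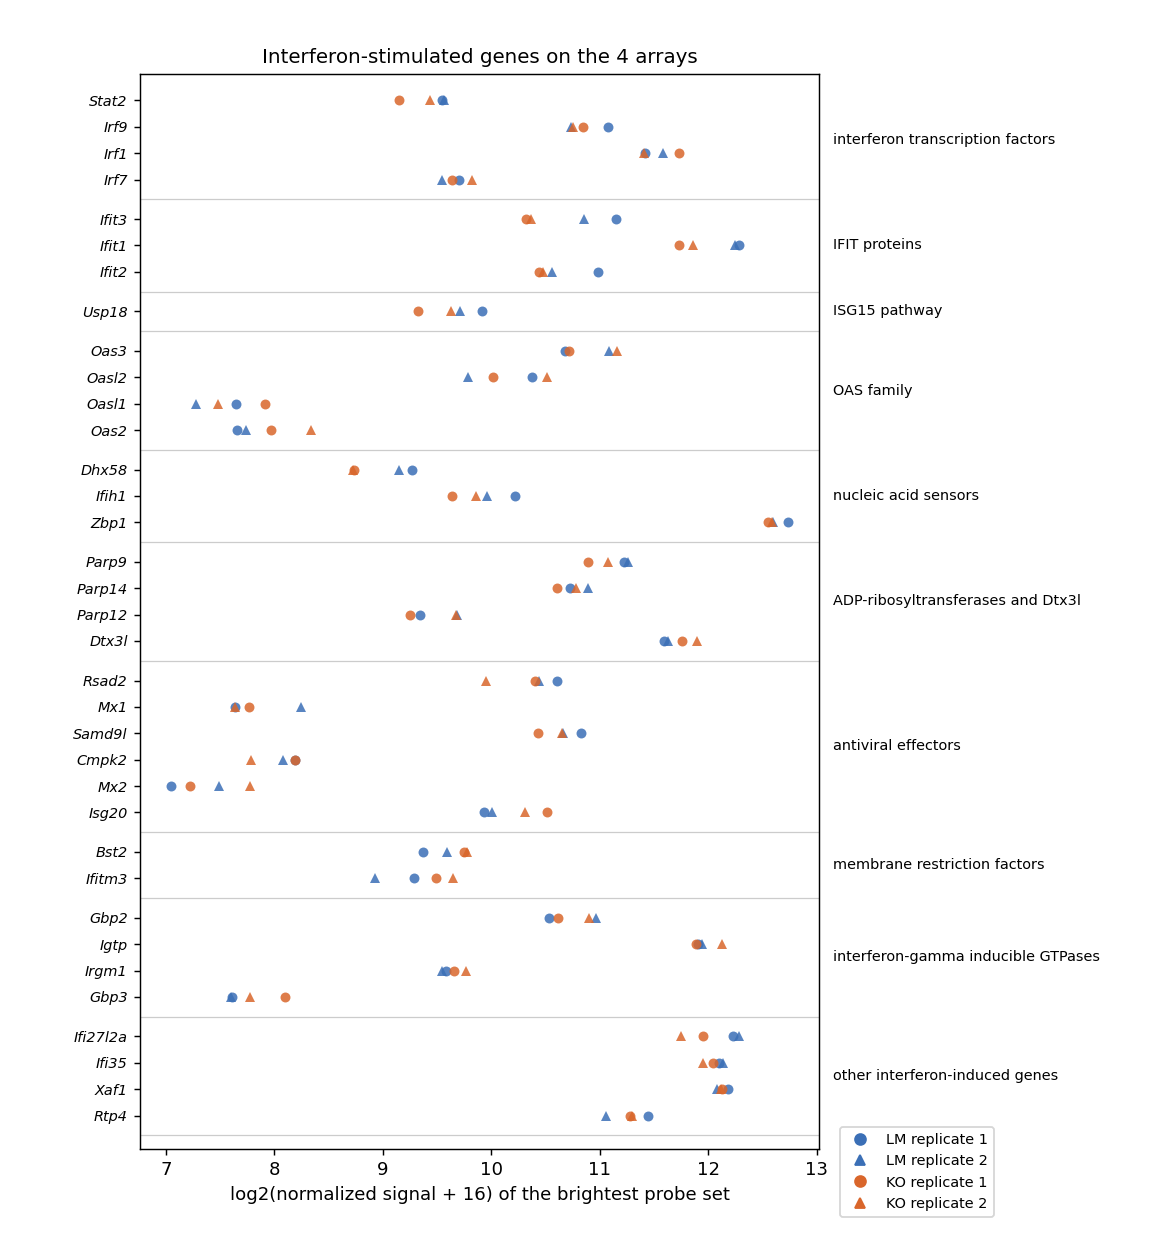
Each row is 1 interferon-stimulated gene and each point 1 array, on the axis of log2(normalized signal + 16) of the brightest probe set; blue marks LM, orange KO, circles replicate 1 and triangles replicate 2. For Ifit1, Ifit3 and Dhx58 both orange points lie clearly left of both blue points, for Isg20 and Ifitm3 to the right, and for 15 of the 35 genes the groups overlap.

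Signals below are given in the order replicate 1, then 2, for each group. The IFIT proteins bind foreign or unmodified RNA and block its translation. All 3 measured genes read lower on the KO arrays, with a median difference of -0.47, and the groups overlapped for none of them. Of all genes tested, 18.3% had both KO arrays below both LM arrays. The members were chosen with earlier results known, so the count is a description. Ifit3 read 1263 and 1306 in KO cells against 2257 and 1830.2 in LM cells, so both KO arrays were below the lower LM array. Its difference of -0.66 ± 0.16 (log2 ± SE, n = 2 and 2, limma adjusted p = 0.190) corresponds to a 1.58-fold lower mean signal and had a 95% interval of -1.01 to -0.30. Leaving out LM replicate 2 gave a difference of -0.81 for Ifit3, and leaving out LM replicate 1 gave -0.51. Ifit1 read 3368 and 3701 in KO cells against 4959.6 and 4822 in LM cells, with close replicates in each group. It differed by -0.47 ± 0.11 (95% interval -0.71 to -0.23, limma adjusted p = 0.149), a 1.38-fold lower mean. Ifit2 read 1373 and 1404 in KO cells against 2010.1 and 1495 in LM cells and differed by -0.32 ± 0.17 (adjusted p = 0.703); only LM replicate 1 stood well above the other arrays. In RefSeq, Ifit2 and Ifit3 are direct neighbours, and Ifit1bl1, Ifit3b and Ifit1bl2 lie between Ifit3 and Ifit1. Ifit3 and its near copy Ifit3b are close enough in sequence that the probe set given to Ifit3 may read both.

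Nucleic acid sensors detect viral RNA or unusual DNA and RNA. The 3 measured genes read lower on both KO arrays, as did 18.3% of all genes tested, with a median of -0.34. This count too is a description of members chosen with earlier results known. Dhx58, which encodes the RIG-I-like regulator LGP2, read 409 and 408 in KO cells against 599 and 551 in LM cells; the KO arrays were nearly equal and below both LM arrays. Its difference was -0.48 ± 0.21 (limma adjusted p = 0.579). Ifih1, which encodes the RNA sensor MDA5, read 778 and 914 in KO cells against 1178 and 978 in LM cells and differed by -0.34 ± 0.19 (adjusted p = 0.703). Zbp1, a sensor of left-handed nucleic acids that can start necroptosis, read 5989.8 and 6139 in KO cells against 6799 and 6175 in LM cells, so the groups came close to touching. It differed by -0.10 ± 0.09, with a 95% interval of -0.30 to 0.11.

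Of the 4 transcription factors that carry the signal, 2 were lower and 2 higher, with a median of -0.02. Stat2, the STAT protein particular to the type I complex, read 550.0 and 674 in KO cells against 733 and 742 in LM cells; both KO arrays were lower, and the difference was -0.27 ± 0.20 (adjusted p = 0.813). It was -0.13 without KO replicate 1 and -0.41 without KO replicate 2. Irf9, the DNA-binding part of that complex, read 1818 and 1712 in KO cells against 2146 and 1685 in LM cells and differed by -0.11 ± 0.16 (adjusted p = 0.922), with overlapping groups. Without LM replicate 1 the Irf9 difference was 0.0654. Irf7, which amplifies interferon production, differed by 0.11 ± 0.19 (95% interval -0.30 to 0.53), and Irf1, induced by interferon gamma and other signals, by 0.07 ± 0.14 (-0.24 to 0.38). Irf7 signals of 729.8 to 891 and Irf1 signals of 2697 to 3376 spanned both groups.

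Usp18, the protease that removes Isg15 from proteins and restrains the type I receptor, read 624 and 776 in KO cells against 949.8 and 821 in LM cells. Both KO arrays were lower, with a difference of -0.34 ± 0.20 (limma adjusted p = 0.728), which was -0.18 without KO replicate 1. Many, but not all, proteins of the OAS family make 2′-5′ oligoadenylates that activate RNase L. All 4 members of this family had a higher mean on the KO arrays, the reverse of the IFIT genes, against 50.3% of all genes tested. Only Oas2 had groups that did not overlap. Oas2 read 235 and 307 in KO cells against 186 and 197 in LM cells and differed by 0.46 ± 0.29 (adjusted p = 0.756). Oasl2 read 1021 and 1447 in KO cells against 1309 and 867 in LM cells. The spread within each group (SD 0.41 on LM and 0.35 on KO) was wider than the difference of 0.19 ± 0.23 (limma adjusted p = 0.900). Oasl1, which restrains Irf7 translation, differed by 0.24 ± 0.33 and Oas3 by 0.05 ± 0.19. The sign turned for Oasl2 without LM replicate 2 (-0.11) or KO replicate 2 (-0.06), and for Oas3 without LM replicate 1 (-0.15) or KO replicate 2 (-0.17). No test compared the OAS with the IFIT genes.

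Among proteins that attach ADP-ribose, Parp9 forms a complex with the ubiquitin ligase Dtx3l that promotes interferon responses. The 2 genes are neighbours in RefSeq and their means differed in opposite directions. Parp9 read 1876 and 2140.4 in KO cells against 2370.5 and 2434 in LM cells, a difference of -0.26 ± 0.14 (limma adjusted p = 0.698). Dtx3l read 3437 and 3782 in KO cells against 3061 and 3147 in LM cells, a difference of 0.21 ± 0.12 (adjusted p = 0.703), but its other probe set differed by -0.01. Parp14, next to Dtx3l, differed by -0.11 ± 0.16 and Parp12 by -0.05 ± 0.22, both with overlapping groups.

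Antiviral effectors also ran both ways, with a median of -0.18 over 6 members. Isg20, an exonuclease that degrades single-stranded RNA, read 1443 and 1256 in KO cells against 958 and 1012 in LM cells. Both KO arrays were above both LM arrays, with a difference of 0.45 ± 0.17 (95% interval 0.07 to 0.82, limma adjusted p = 0.470). Rsad2, which encodes viperin, an enzyme that makes a chain-terminating nucleotide, read 1340.2 and 973 in KO cells against 1538 and 1376 in LM cells; KO replicate 2 stood low and KO replicate 1 lay close to the lower LM array. Its difference was -0.34 ± 0.19 (adjusted p = 0.703), and -0.12 without KO replicate 2. Cmpk2, a mitochondrial nucleotide kinase and the neighbour of Rsad2 in RefSeq, differed by -0.15 ± 0.28. Samd9l, a restriction factor of poxviruses, differed by -0.20 ± 0.16, and the dynamin-like GTPases Mx1 and Mx2 by -0.25 ± 0.31 and 0.23 ± 0.36. In common inbred strains such as B6, the Mx genes carry mutations that disrupt the protein.

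Bst2, or tetherin, holds budding virions at the cell surface, and Ifitm3 blocks viral fusion in endosomes. Ifitm3 read 701 and 785 in KO cells against 607 and 472 in LM cells, both KO arrays above both LM arrays, and differed by 0.46 ± 0.21 (limma adjusted p = 0.594). Bst2 read 844 and 860.2 in KO cells against 644 and 757 in LM cells and differed by 0.28 ± 0.19 (adjusted p = 0.788). The interferon gamma inducible GTPases attack membranes around intracellular pathogens. Their means were higher on the KO arrays for 4 of 4, against 50.3% of all genes tested, with a median of 0.12. Gbp3 read 258 and 203 in KO cells against 179 and 178 in LM cells and differed by 0.33 ± 0.30 (adjusted p = 0.851). Irgm1 read 789 and 854 in KO cells against 749 and 729 in LM cells, a difference of 0.15 ± 0.19 (adjusted p = 0.905) with both KO arrays above both LM arrays. Gbp2 differed by 0.01 ± 0.18 (95% interval -0.39 to 0.40) and Igtp by 0.09 ± 0.12 (-0.17 to 0.34), and their groups overlapped. The sign turned for Igtp without KO replicate 2 (-0.03). For Gbp2 it turned without LM replicate 1 (-0.21), without KO replicate 2 (-0.14) and with median centring (-0.04).

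Of the remaining members, Ifi27l2a, a small mitochondrial membrane protein, read 3944 and 3424 in KO cells against 4783 and 4977 in LM cells. Both KO arrays were lower, and it differed by -0.41 ± 0.11 (95% interval -0.65 to -0.16, limma adjusted p = 0.267), a 1.33-fold lower mean. Ifi35, which forms complexes with Nmi, read 4200.1 and 3928 in KO cells against 4377 and 4489 in LM cells and differed by -0.13 ± 0.11 (adjusted p = 0.840). Xaf1, a pro-apoptotic partner of XIAP, read 4463 and 4414 in KO cells against 4613 and 4297 in LM cells; its difference of -0.00444 had a 95% interval of -0.23 to 0.22. Rtp4, a chaperone of G protein-coupled receptors, differed by 0.03 ± 0.15 (-0.30 to 0.36).

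**Figure D2:**
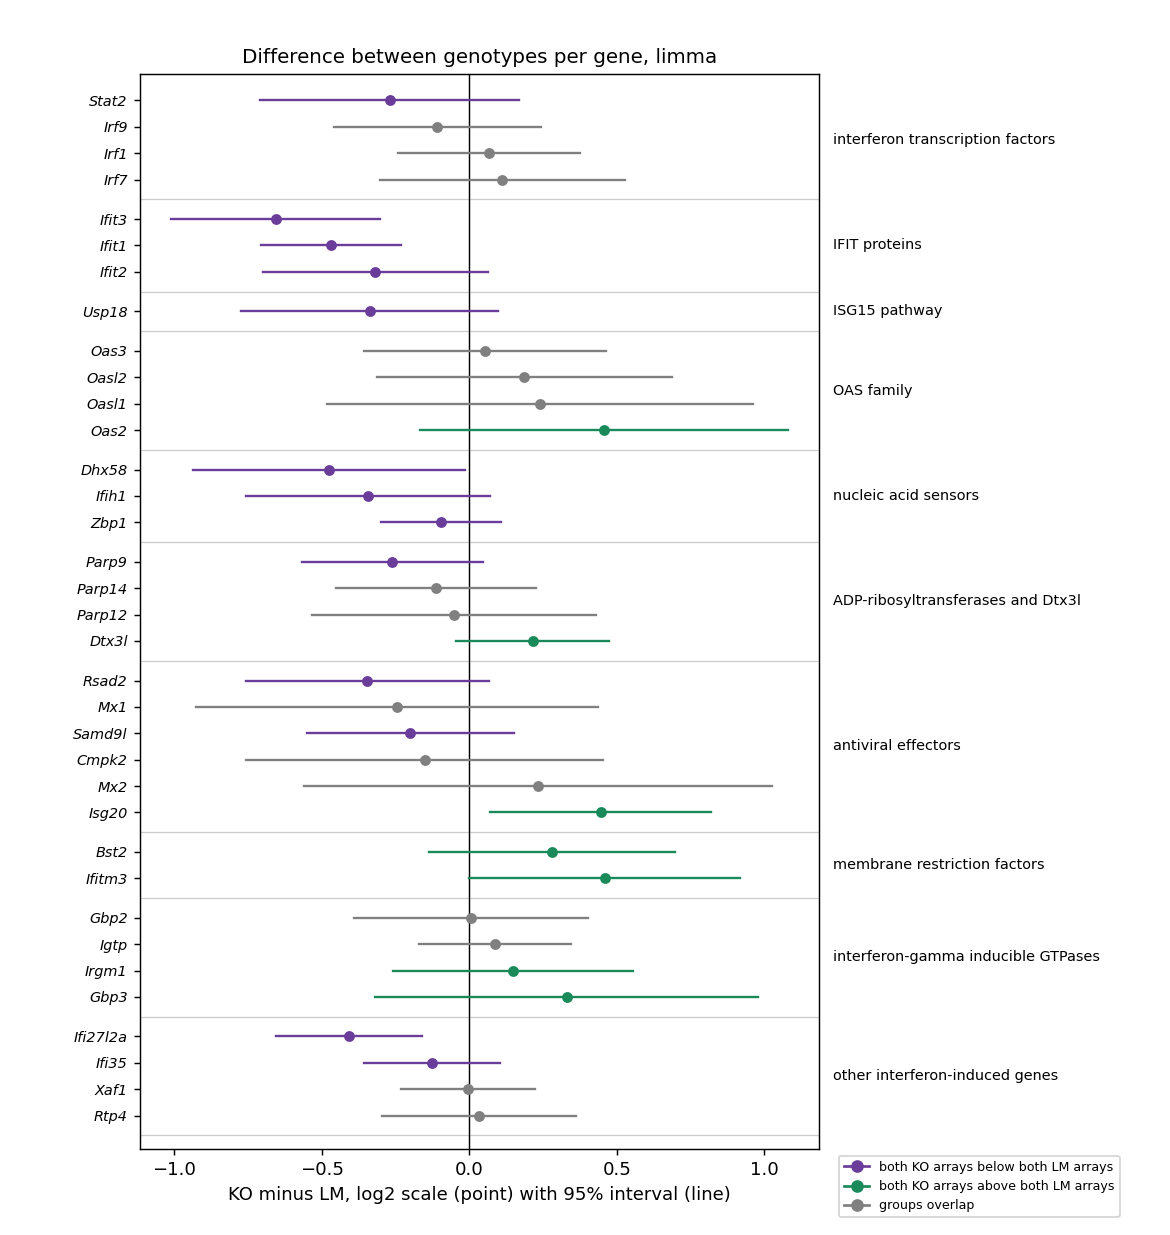
Each row is 1 gene, the point its KO minus LM difference on the log2 scale and the line its 95% interval in limma, with 2 arrays a group; purple marks genes with both KO arrays below both LM arrays, green those with both above and grey those that overlap. The intervals of Ifit3, Ifit1, Ifi27l2a and Dhx58 lie below 0 and that of Isg20 above it before adjustment over 11255 genes, and none of the 35 passed the adjusted threshold of 0.05.

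Probe sets within a gene bore on how far a single value can be read. Of the 35 genes 24 had 1 probe set, 8 had 2 and 3 had 3, and 48 of the 49 were above background on at least 2 arrays. Among the 48, 28 differed downward and 20 upward. Tested probe sets had the same sign in 7 of the 10 genes with more than 1. The 3 probe sets of Rsad2 differed by -0.34, -0.40 and -0.38, although KO replicate 1 read above both LM arrays on the dimmer pair. For Dhx58 the brightest probe set differed by -0.48 and the others by -0.56 and -0.08. Stat2 had -0.27 and -0.02. The signs were mixed for Parp14, Dtx3l and Ifi35. Ifit1, Ifit2, Ifit3, Ifi27l2a, Isg20 and Ifitm3 each rest on 1 probe set.

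**Figure D3:**
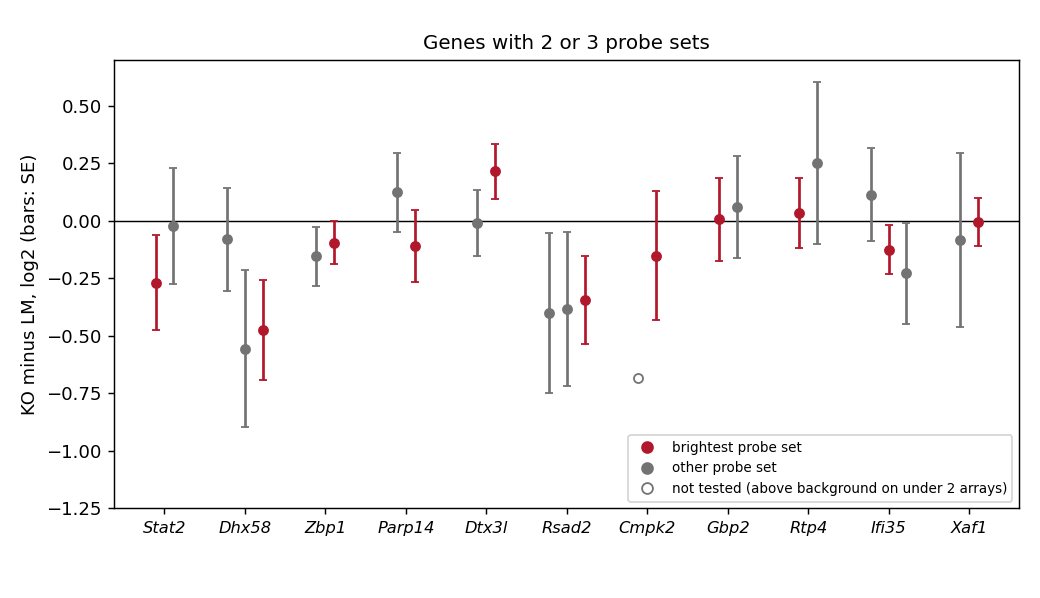
For the 11 genes with 2 or 3 probe sets, each point is 1 probe set's KO minus LM difference on the log2 scale with its SE, red for the brightest; the open point, 1 of the 2 of Cmpk2, was above background on 1 array and was not tested. The points of Rsad2, Dhx58 and Zbp1 all lie below 0, and those of Parp14, Dtx3l and Ifi35 lie on both sides.

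The genes upstream of the response gave 0 calls. Of 17 interferon genes listed, 9 had a probe set, and 7 of these were below background on every array, Ifnb1 and Ifng among them. Ifna1 read 279 and 296 in KO cells against 256 and 335 in LM cells (difference -0.03 ± 0.26), and Ifna5 read 32.3 and 123 in KO cells against 113 and 71.6 in LM cells (difference -0.38 ± 0.58). The Ifna genes are near copies of each other, so these 2 values are uncertain. For the type I receptor, Ifnar1 read 2285 and 2070.0 in KO cells against 2389.6 and 1985 in LM cells and Ifnar2 read 2192 and 1439 in KO cells against 1674 and 1957 in LM cells. Both chains overlapped between groups, with differences of -0.00211 ± 0.15 (95% interval -0.33 to 0.32) and -0.03 ± 0.20 (-0.45 to 0.40). Of 14 tested receptor and proximal signalling genes, 6 were higher and 8 lower, with a median of -0.008. Ifngr1, a chain of the interferon gamma receptor, read 781 and 862 in KO cells against 430.4 and 640.2 in LM cells and differed by 0.63 ± 0.23 (limma adjusted p = 0.427), both KO arrays being above both LM arrays. Its difference was 0.35 without LM replicate 1 and 0.91 without LM replicate 2. Ptpn2, a phosphatase that ends JAK and STAT signalling, read 3991 and 4366 in KO cells against 3655 and 3372 in LM cells and differed by 0.25 ± 0.11 (adjusted p = 0.596), but by -0.0155 with the mean of its probe sets.

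Of 17 tested sensors, adaptors and factors that induce interferon, 7 were higher and 10 lower, with a median of -0.07. Ikbke, a kinase that activates interferon regulatory factors, read 1247 and 1696 in KO cells against 1960.0 and 2262 in LM cells and differed by -0.53 ± 0.18 (adjusted p = 0.393), or -0.31 without KO replicate 1. Irf4, a factor induced by T cell receptor signals, read 1688 and 2153 in KO cells against 948 and 1466 in LM cells and differed by 0.69 ± 0.21 (limma adjusted p = 0.334). It passed the threshold without LM replicate 2, at 0.996 (adjusted p = 0.00327), and differed by 0.375 (adjusted p = 0.837) without LM replicate 1.

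A further list of 64 interferon-induced genes, none of them members, had 46 tested. Of these 32 were lower and 14 higher on the KO arrays (69.6% lower, against 49.7% of all genes tested), with a median of -0.09 and 0 called. In this list 4 genes (8.70%) had an unadjusted p below 0.05 in limma, a share near the 8.40% of all genes tested, so the count is no result about the list. All 4 were lower on the KO arrays. Sp100, a nuclear body protein, read 5675 and 5483 in KO cells against 6713 and 6671 in LM cells and differed by -0.26 ± 0.09 (limma adjusted p = 0.409), and Parp11 read 1196 and 1123 in KO cells against 1590.5 and 1524 in LM cells and differed by -0.42 ± 0.16 (adjusted p = 0.463). Both KO arrays were below both LM arrays for each of them. Ddx60, a helicase that aids RNA sensing, differed by -0.32 ± 0.14 and Daxx, a histone chaperone, by -0.39 ± 0.18; these last 2 were chosen after their values were seen.

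Maturation genes were read beside the interferon-stimulated genes. Of 14 late mature single-positive genes, 12 were lower on the KO arrays and 1, Cd55, passed the test, with a list median of -0.27. These are 85.7% lower and 7.14% called, against 49.7% and 0.275% of all genes tested. The called share is Cd55 alone, which had the smallest p of all genes tested in limma. Both maturation lists were chosen with earlier results of these data known, so their shares are descriptions. Cd55, the complement decay-accelerating factor, read 169.5 and 124 in KO cells against 1401 and 1009 in LM cells (difference -2.90 ± 0.25, limma adjusted p = 0.000895). It missed the threshold without the filter on dim genes (adjusted p = 0.0713) and without the intensity trend (adjusted p = 0.228). Slfn1, a member of the Schlafen family, read 6992 and 6945 in KO cells against 9075 and 8428 in LM cells and differed by -0.33 ± 0.08 (adjusted p = 0.202). Of 14 recently selected genes, 11 were higher (78.6%, against 50.3% of all genes tested) and 3 lower, with a median of 0.16. In limma, 50% of the late mature and 35.7% of the recently selected genes had an unadjusted p below 0.05, against 8.40% of all genes tested. Both KO arrays lay below both LM arrays for 10 late mature genes and above them for 2. For recently selected genes these counts were 1 and 9. Of all genes tested, 18.3% lay below and 19.1% above. Ccr4, a chemokine receptor of recently selected cells, read 2752 and 2405 in KO cells against 1579 and 1841 in LM cells and differed by 0.59 ± 0.15 (adjusted p = 0.202), and by 0.70 without LM replicate 2, where it passed (adjusted p = 0.0445). Without LM replicate 1 the Ccr4 difference was 0.479 (adjusted p = 0.421). Egr1, an immediate-early factor, read 4675 and 4977 in KO cells against 6079 and 5745 in LM cells and differed by -0.29 ± 0.10. The summed signal of the late mature list was 87783 and 82769 in KO cells against 100076 and 94004 in LM cells. That of the recently selected list was 66058 and 69502 in KO cells against 63073 and 61973 in LM cells. The part of either list in the differences of the interferon-stimulated genes was not tested.

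**Figure D4:**
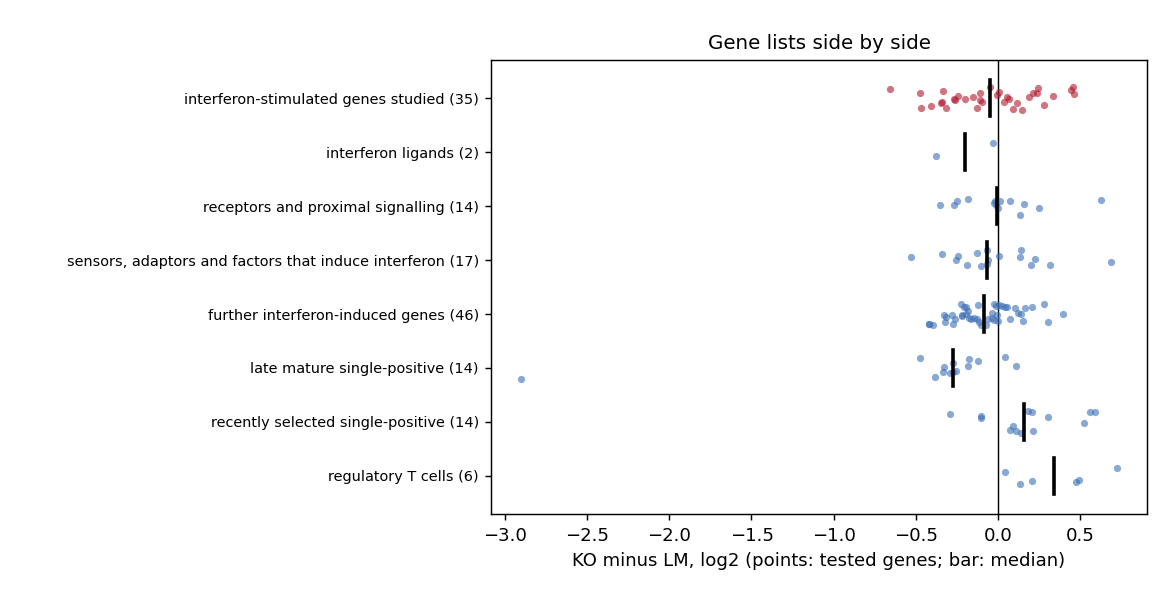
Each point is 1 tested gene's KO minus LM difference on the log2 scale, by gene list, with the number tested in brackets and a bar at the list's median. The interferon-stimulated genes studied spread on both sides of 0 around a median of -0.05, with the late mature list at -0.27 and the regulatory T cell list at 0.34.

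The 9 tested markers of CD4 single-positive T cells had 4 higher, 5 lower and 0 called, with sums of 51827 and 50151 in KO cells against 52574 and 51123 in LM cells. All 6 regulatory T cell markers had a higher mean on the KO arrays, against 50.3% of all genes tested, with 0 called. For 4 of the 6 the groups overlapped, and differences ran from 0.04 to 0.72. Their summed signal was 9688 and 8406 in KO cells against 6972 and 7368 in LM cells. Il2ra, the CD25 gene, read 966 and 951 in KO cells against 602 and 549 in LM cells and differed by 0.72 ± 0.19 (limma adjusted p = 0.221). Ikzf2, which encodes Helios, read 2948 and 2785 in KO cells against 1956 and 2117 in LM cells and differed by 0.49 ± 0.13 (adjusted p = 0.245). Of 7 tested double-positive markers 6 were higher and 1 lower, and their sums overlapped (4713 and 5442 on LM, 5385 and 5812 on KO). Plasmacytoid dendritic cells are strong interferon producers and carry Bst2; Siglech, their defining marker, read 43.3 to 118 and was above background on 3 arrays. Of their 8 listed markers, 6 were higher and 2 lower, with a median of 0.17 and 0 called. These are 75% higher, against 50.3% of all genes tested. Differences ran from -0.40 to 0.58, the highest being that of Tcf4. Both KO arrays lay above both LM arrays for 4 of the 8 and below them for 1, against 19.1% and 18.3% of all genes tested. In limma 25% had an unadjusted p below 0.05, against 8.40% of all genes tested. The 8 markers summed to 11178 and 10738 in KO cells against 9725 and 9676 in LM cells, most of it from Ccr9, which thymocytes express. Conventional dendritic cell markers summed to 594 and 840.3 on LM and 739.7 and 942 on KO, with 4 of 7 below background on every array. For macrophages the sums were 631 and 704 on LM and 656 and 546 on KO, with 4 of 8 below background on every array, C1qa and Adgre1 among them. For B cells they were 869.9 and 837 on LM and 904 and 491 on KO, with 5 of 7 below background throughout, among them Ms4a1 and Pax5. NKT and innate-like markers summed to 1462 and 1434 on LM and 1803 and 1585 on KO. Thymic epithelial markers (375 and 326, then 319 and 296) and erythroid markers (229.6 and 203, then 121 and 293) were near background. The sort had excluded cells that stain for CD25, which most regulatory T cells carry, and for the CD1d-PBS57 tetramer, which binds NKT cells. The part of any other cell type in the differences was not tested.

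The single arrays did not weigh equally. Relative to each gene's own mean, the median member stood at 0.0533 on LM replicate 1, 0.0223 on LM replicate 2, -0.0654 on KO replicate 1 and 0.00387 on KO replicate 2. KO replicate 1 read below the mean of the LM arrays for 22 of the 35 members and KO replicate 2 for 19, against 48.2% and 49.7% of all genes tested. Without KO replicate 1 the members' median difference was -0.0204, and without LM replicate 1 it was -0.10. For Ifit1, Ifit3, Ifi27l2a, Dhx58, Isg20 and Ifitm3 the sign was the same in all 15 alternative fits. Their groups do not overlap, so leaving out 1 array could not turn it. Changes of filter or moderation leave a difference as it is. The sign also held in all 15 for members with overlapping groups, such as Irf7 and Oasl1. Leaving out 1 array moved the difference by over 1.5 times for 29 of the 35 members, and for 14 of the 20 whose groups did not overlap. The other 6 were Ifit1, Ifit3, Dhx58, Dtx3l, Isg20 and Ifi27l2a.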

How the data were processed

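The deposited values are intensities on a linear scale, 1 for each of 45101 probe sets on every array, and they show that each array had been scaled to a mean of 500.0 after trimming 2% at each end. The summarisation program is not given in the sources used here. Per the labels' protocols, RNA was extracted with Trizol, amplified with WT-Ovation Pico and labelled with biotin. Without 64 controls, 34945 probe sets had a single gene symbol, 932 several and 9160 none.

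Signals were taken as log2(intensity + 16), which understates changes of dim genes, and quantile normalized, since array medians differed by over 0.1. Signals in the text are on this normalized scale, returned to linear units. A gene was its brightest probe set and was tested if above background, set per array as the 95th percentile over 80 probe sets of olfactory or vomeronasal receptors, on at least 2 arrays. KO minus LM was estimated by limma 3.58.1 in R 4.3.3, using eBayes with an intensity trend, with Benjamini-Hochberg adjustment over all features tested, two-sided, threshold 0.05. The fit was tested on simulated data, where it recovered 47.1% of 2-fold and 86.35% of 4-fold changes at the threshold, with 5.29% of calls false. Smaller changes were not simulated. The largest member difference was 1.58-fold (Ifit3), so the lack of calls among members does not show a lack of change. Tables and plots used Python 3.11.15, pandas 2.3.3 and matplotlib 3.10.9. With 2 arrays a group an exact permutation test cannot go below p = 0.333, and array number limits precision; the median SE was 0.22.

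Members and lists were chosen with earlier results of these data known. Values on every array are given for the 2 members of each role group with the smallest p, the 3 largest differences each way and the 3 brightest, and, of other lists, called genes, the 2 smallest p, Ifnar1 and Ifnar2 (markers of other cell types, beyond regulatory T cells, are given as sums instead); promoters are shown for up to 5 such members with an ISRE core, by p. Same-numbered arrays did not deviate together (r = -0.0171 over genes), so replicate numbers were not used as pairs. Alternatives covered the filter, normalization, pseudocount, moderation, probe sets, replicate block and each array left out.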

Additional observations from a re-analysis of the deposited data

How the results depend on the processing

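Over the 15 alternatives, 0 members were called higher in any and 0 lower in all but the fit without LM replicate 2, which called 1 (Ifit3, limma adjusted p = 0.0400), so counts without 1 array ran from 0 to 1 lower. In both fits without an LM array the spread borrowed from other genes had infinite weight and a lone array was assumed to vary like the other group. The members' median difference was -0.12 with median centring, where the median over all genes was -0.05 and 22 of 35 were lower, and from -0.10 to -0.0204 with 1 array left out; in the other alternatives it was within 0.038, the spread between replicates, of its main value. With the replicate block it was -0.05 with 0 members called. Of the values of single members over all alternatives, 515 kept their side of the threshold and either kept their sign or turned it by less than 1 SE. The sign turned by more for 9, all in fits without 1 array. Over all genes, 31 were called, against 0 without the filter on dim genes (1247 at an unadjusted p below 0.05 in limma), 0 without the intensity trend (922 at that p), 81 with median centring, 81 without LM replicate 1, 97 without LM replicate 2, 55 without KO replicate 1 and 50 per probe set. The replicate block gave 43. Other limits are the 2 arrays per group, single probe sets for 24 members, and an unstated summarisation method.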
